A study of Mus musculus with 8 samples.

Results

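Macrophages lacking PTIP were compared with wildtype macrophages before any stimulus. The comparison used 4 of the 8 RNA sequencing libraries of the series, 2 labelled conditional knockout (cKO) and 2 labelled wildtype (WT). Each gene was measured by the difference between the group means, cKO minus WT. It covered the 11543 of 55226 listed genes whose mean value over all 8 libraries was at least 3. The cells were bone marrow-derived macrophages of C57BL/6 mice, grown from femoral marrow for 7 days with 10 ng/ml of M-CSF, the growth factor that drives macrophage differentiation, and 10% serum. The resting groups are labelled as 0 h of lipopolysaccharide (LPS), a bacterial cell wall component that activates Toll-like receptor 4. Libraries of both genotypes taken after 6 h of LPS at 100 ng/ml gave 2 more groups of 2, which entered the model and served as separate libraries for the same genotype contrast. The Cre driver of the knockout, the exons deleted and the sex and age of the mice were not stated in the labels. The series text calls the samples biological replicates without saying whether a replicate number stands for a mouse. The p-values therefore measure only the spread between these libraries, which may be technical.

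PTIP, encoded by Paxip1, is a nuclear protein with BRCT repeats. It is a component of the KMT2C and KMT2D complexes, which methylate histone H3 on lysine 4 at enhancers and promoters, and it also works with 53BP1 in the DNA damage response. Resting macrophages keep inflammatory genes at a low level, transcribe immediate early genes as culture conditions change, and display lectins and scavenger receptors on their surface.

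The values are regularised log (rlog) expression values on a log2 scale, as deposited by the authors. The transformation shrinks the spread of genes with few reads, so a difference of 1 is nominally a doubling but understates the change of low genes. Levels are not scaled for gene length, so they are compared between samples and not between genes. No read counts were used, so the depth of the libraries is unknown. Tests are from limma on all 8 libraries, with Benjamini-Hochberg adjusted p-values over the 11543 genes and a threshold of 0.05. Each difference is followed by its standard error (SE).

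Across genes, which are not independent replicates, the resting libraries of a genotype correlated at r = 0.987 for cKO and 0.989 for WT. The libraries within a genotype still differed in sets of genes. Replicate 2 of resting cKO exceeded replicate 1 by more than 1 log2 unit in 220 genes, against 20 genes in the reverse direction. Replicate 1 of resting WT exceeded replicate 2 by that margin in 117 genes, against 84 in the reverse. Those 220 genes differed between cKO and WT by a median of 0.81, and those 117 by a median of -0.55. The high library that picked each set also raises its group mean, so these medians follow in part from the choice of genes. None of the genes that passed the test at rest had such a gap in either genotype.

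Paxip1 itself was lower in cKO. Its level was 4.50 in both WT libraries and 2.54 and 2.48 in the cKO libraries, a difference of -1.99 (SE 0.18, adjusted p = 0.00686). The groups did not overlap, in the direction the labels give. Paxip1 is a low gene, so the rlog difference understates the change. The authors' deposited table gives it a log2 fold change of -4.75 at rest. The gene lies at 27740080 to 27791691 on the minus strand of chromosome 5 (GRCm38). Of 128 tested genes within 10 megabases of it on either side, 0 passed the threshold in limma, against 0.251% of all tested genes. At that share a count of 0 in 128 genes says little about the region. Of the other genes that passed, those on the same chromosome were Cxcl1 and Cxcl2 at 63.2 megabases from Paxip1, Lrrc8c at 77.8 and Hcar2 at 96.1.

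The libraries carried macrophage transcripts throughout. Of 15 macrophage markers, 13 had a mean of at least 3, and Adgre1, a defining surface receptor gene of mouse macrophages, stood at 14.93 and 14.74 in WT and at 14.01 and 14.57 in cKO. Csf1r, the M-CSF receptor gene, was at 13.08 and 13.44 in WT and at 12.88 and 12.75 in cKO. Cd68, a lysosomal membrane protein gene, was at 14.44 and 14.59 in WT and at 14.67 and 14.83 in cKO. The 13 markers had a median difference of -0.54, or -0.83 without cKO replicate 2, and 1, Mrc1, passed the test. In 8 of them both cKO libraries were below both WT libraries, against 21.9% of all genes. Their summed level, to which Lyz2 contributes most, was 19.32 to 19.39 in WT and 18.51 to 18.81 in cKO. In bulk RNA, fewer cells of a type and less RNA per cell cannot be told apart.

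Some transcripts that define other blood cells were low in both genotypes, and others on the same lists were not. The CD3 genes of T cells lay below 3 in every library, as did Ly6g and S100a9 of neutrophils. Il7r, also on the T cell list, was at 9.7 and 10.4 in WT and at 10.0 and 9.6 in cKO at rest. Cd28 of that list was at 7.4 and 6.8 in WT and at 6.7 and 6.1 in cKO. The summed level of the T cell list was 10.0 to 10.5 in WT and 9.8 to 10.2 in cKO. The B cell list summed to 8.2 to 8.8 in WT and 8.0 to 8.7 in cKO. All 8 natural killer cell markers had a mean below 3 over the 8 libraries, but Klrb1c, the gene of NK1.1, was at 2.59 and 2.71 in WT and at 3.26 and 3.44 in cKO at rest. The summed level of that list, to which Klrb1c contributes most, was 3.41 to 3.48 in WT and 3.83 to 3.93 in cKO. Retnlg, another neutrophil gene, was listed at 0 in every library. The 3 neutrophil markers above 3 were Camp, Mmp8 and S100a8, of which macrophages can also express some. The summed level of the neutrophil list was 12.61 to 13.27 in WT and 13.51 to 13.79 in cKO. The summed level of the monocyte list was 11.77 to 12.88 in WT and 11.41 to 11.54 in cKO, with Ly6c2 at 11.58 and 10.14 in WT and 9.26 in both cKO libraries. Other members went the other way, such as Cd177 at 5.77 and 5.75 in WT and at 6.21 and 6.22 in cKO. Of its 7 tested members 3 were lower and 2 higher at an unadjusted limma p under 0.05, against 6.02% and 4.86% of all genes. That list's median difference was -0.43, or 0.35 without WT replicate 1. The part of these shifts in the genotype differences described here was not tested.

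Of the 11543 genes, 6 were higher in cKO (0.052%) and 23 were lower (0.199%). These shares are the background for the counts of called genes given for each list below. The higher genes were Lyz1, Elavl1, Glud1, Dgkg, Ankrd37 and Klra3, with differences from 1.34 to 3.13, nominal folds of 2.53 to 8.75 on the shrunken scale. The lower genes ran from -0.81 in Lrrc8c to -2.22 in Jun, nominal folds of 1.76 to 4.65. Over all tested genes the median difference was -0.01 and the 5th and 95th percentiles were -0.52 and 0.52. These counts depended on single libraries. With 1 resting library left out, 1 gene higher and 1 lower passed without WT replicate 1, 8 and 20 without WT replicate 2, 2 and 4 without cKO replicate 2, and 99 and 29 without cKO replicate 1. With either cKO library at 6 h left out, 2 and 5 passed.

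**Figure D1:**
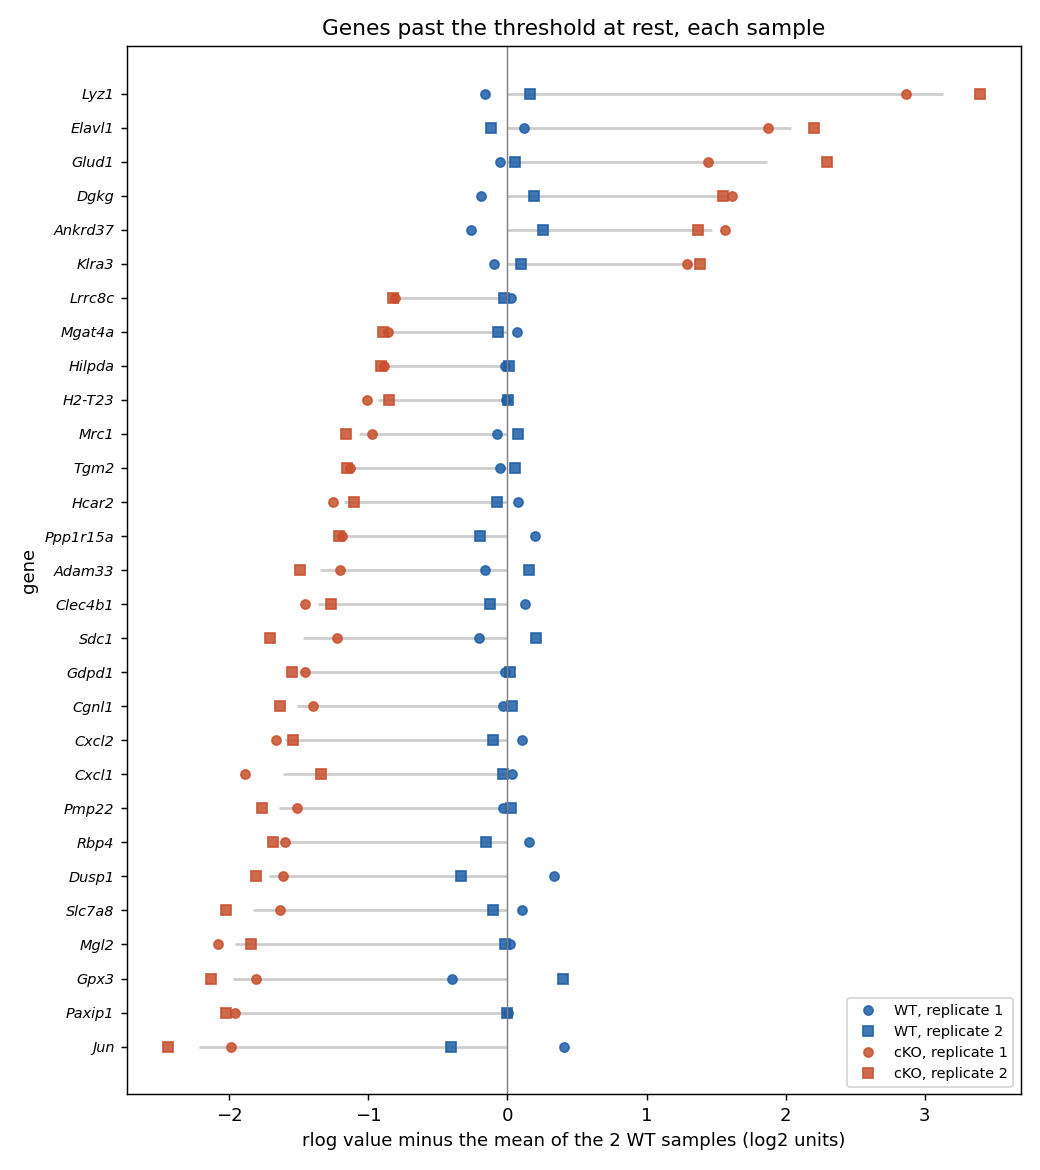
Each row is a gene that passed the test at rest and each point is a resting library, plotted as its rlog value minus the mean of the 2 WT libraries in log2 units. Blue marks WT and orange cKO, circles replicate 1 and squares replicate 2, and the grey line ends at the cKO mean. The cKO points lie apart from the WT points in all 29 rows, from 3.13 for Lyz1 to -2.22 for Jun.

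The 2 lists used for promoter sequences were chosen with earlier results of these data known. Other lists also had median differences below that of all genes, such as MHC class II presentation at -0.59 and alternative activation at -0.47. Promoter sequences are shown for the 4 genes that fell and belong to the immediate early or chemokine lists. Each is the RefSeq window from 250 bases before to 50 bases after the transcription start (GRCm38.p6), written 5′ to 3′ on the gene's strand. The windows are chr4:95052173-95052472 on the minus strand for Jun, chr17:26508423-26508722 on the minus strand for Dusp1, chr5:90890995-90891294 on the plus strand for Cxcl1 and chr5:90903649-90903948 on the plus strand for Cxcl2. Capitals mark a cyclic AMP response element-like match (TGACNTCA) in Jun and Dusp1. In Cxcl1 and Cxcl2 they mark the NF-kB consensus, found at overlapping positions on the 2 strands.
Jun: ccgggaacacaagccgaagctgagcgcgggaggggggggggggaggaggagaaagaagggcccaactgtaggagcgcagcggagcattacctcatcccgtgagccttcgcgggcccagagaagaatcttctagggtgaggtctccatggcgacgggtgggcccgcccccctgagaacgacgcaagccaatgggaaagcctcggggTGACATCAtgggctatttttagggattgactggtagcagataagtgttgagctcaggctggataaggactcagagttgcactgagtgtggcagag
Dusp1: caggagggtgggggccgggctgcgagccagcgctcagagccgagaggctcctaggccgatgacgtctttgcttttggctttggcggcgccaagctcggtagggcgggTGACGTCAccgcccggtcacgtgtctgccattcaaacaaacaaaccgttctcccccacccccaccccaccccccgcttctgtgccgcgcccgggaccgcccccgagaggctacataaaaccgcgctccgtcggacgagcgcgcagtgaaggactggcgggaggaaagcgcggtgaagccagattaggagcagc
Cxcl1: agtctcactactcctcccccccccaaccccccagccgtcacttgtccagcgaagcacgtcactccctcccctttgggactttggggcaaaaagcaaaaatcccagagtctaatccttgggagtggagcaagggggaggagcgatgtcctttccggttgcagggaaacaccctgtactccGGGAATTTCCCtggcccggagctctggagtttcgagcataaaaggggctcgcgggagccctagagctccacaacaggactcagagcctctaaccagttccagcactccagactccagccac
Cxcl2: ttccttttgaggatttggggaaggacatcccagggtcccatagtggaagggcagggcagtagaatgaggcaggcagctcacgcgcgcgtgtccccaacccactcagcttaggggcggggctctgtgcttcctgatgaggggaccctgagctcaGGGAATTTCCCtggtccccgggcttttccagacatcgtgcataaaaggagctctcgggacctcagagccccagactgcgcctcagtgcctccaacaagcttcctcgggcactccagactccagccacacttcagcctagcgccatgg

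The match begins 45 bases before the start in Jun and 143 bases before it in Dusp1. In Cxcl1 and Cxcl2 the matches begin 71 and 97 bases before the start, and both genes carry the same 11 capital letters. Both strands of all windows were searched, and a window was found for 8600 tested genes. TGACNTCA was present in 7.28% of them and in 3 of the 20 windows of genes that fell, those of Jun, Dusp1 and Ppp1r15a. It was also in 1 of the 6 windows of genes that rose, that of Dgkg. Of 27 immediate early gene windows, 4 held it, which is 14.8%. The NF-kB consensus was present in 5.12% of all windows, in 2 of the 20 and in 5 of 16 chemokine windows, which is 31.2%. It was also in 5 of the 27 immediate early windows, 18.5%. The AP-1 site TGANTCA was in 5.16% of all windows in 1 of the 20, that of Hilpda, and in 4 of the 16 chemokine windows. The TATA box TATAAA was in 7.02% of all windows, in 1 of the 20, that of Ppp1r15a, in 4 of the 27 immediate early windows and in 7 of the 16 chemokine windows, 43.8%. Among the 6 windows of genes that rose, TATAAA was in 1, that of Klra3, and the NF-kB consensus and the AP-1 site were in 0. A match describes the letters only and says nothing about binding.

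Of the genes that fell, Jun had the largest difference. Jun, which encodes the c-Jun subunit of the transcription factor AP-1, was at 12.00 and 11.18 in WT and at 9.60 and 9.15 in cKO. The lower WT library lay above the higher cKO library by more than the gap between the WT libraries. Jun fell by 2.22 on the log2 scale (SE 0.31, adjusted p = 0.0389). Dusp1, a nuclear phosphatase that inactivates p38 and JNK, was at 14.26 and 13.59 in WT and at 12.30 and 12.11 in cKO, a difference of -1.71 (SE 0.23, adjusted p = 0.0347). Ppp1r15a, which is on none of the lists and encodes the GADD34 subunit that directs a phosphatase to the translation factor eIF2 alpha, was at 12.06 and 11.67 in WT and at 10.67 and 10.66 in cKO, a difference of -1.20 (SE 0.15, adjusted p = 0.0284). In all 3 genes WT replicate 1 was the highest library.

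Jun and Dusp1 were the 2 of 33 tested immediate early genes that passed, and 0 rose, against 0.199% of all genes lower and 0.052% higher. The list's median difference was -0.49, against -0.01 over all genes. An unadjusted p under 0.05 with a lower level in cKO was found for 17 of the 33, against 6.02% of all genes, and both cKO libraries lay below both WT libraries in 21, against 21.9% of all genes. Large differences that missed the threshold included Egr1, a zinc finger factor, at 11.38 and 10.07 in WT and 9.52 and 7.86 in cKO (-2.03, adjusted p = 0.301). Fosb, an AP-1 partner of c-Jun, was at 8.27 and 7.21 in WT and at 5.94 and 5.59 in cKO (-1.98, adjusted p = 0.198). Ier3, a stress-induced survival gene, was at 8.48 and 8.20 in WT and at 7.13 and 6.50 in cKO (-1.53, adjusted p = 0.193). The groups did not overlap in these 3 genes, but the libraries within a genotype differed by more than 1 unit in Egr1 and Fosb.

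A gradient between the WT libraries ran through the list. WT replicate 1 exceeded WT replicate 2 by a median of 0.42 in the 33 genes, against 0.01 over all genes, and its part in the list's difference was not tested. Without WT replicate 1 the list's median was -0.47, and without cKO replicate 2 it was -0.68. Ier2 went the other way, at 8.05 and 7.63 in WT and at 8.35 and 10.28 in cKO. That gene was picked after its values were seen, as the highest difference of the list, and it rests on cKO replicate 2 (1.48, adjusted p = 0.423).

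**Figure D2:**
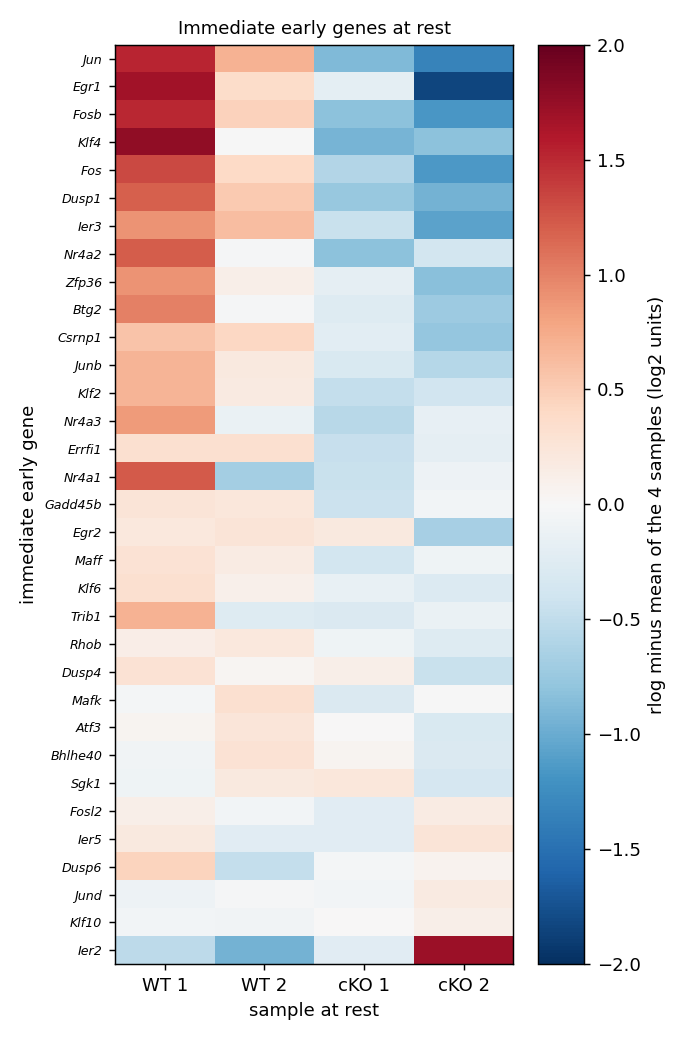
Each row is an immediate early gene and each column a resting library, coloured by its rlog value minus the gene's mean over the 4 libraries in log2 units (red above, blue below). Rows are ordered by the cKO minus WT difference, from -2.22 in Jun to 1.48 in Ier2, and WT replicate 1 is the darkest red column in most of the upper rows.

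Chemokine genes had a median below that of all genes at rest, and Cxcl1 and Cxcl2 passed the threshold. Both encode ligands of the neutrophil receptor CXCR2. Cxcl1 was at 8.08 and 8.01 in WT and at 6.16 and 6.70 in cKO, a difference of -1.62 (SE 0.21, adjusted p = 0.0284). Cxcl2 was at 11.21 and 11.00 in WT and at 9.44 and 9.56 in cKO, a difference of -1.60 (SE 0.14, adjusted p = 0.00632). For Cxcl2 the libraries of a genotype lay within 0.21 of each other, far inside the distance between genotypes. Of 22 tested chemokine genes 2 fell and 0 rose, against 0.199% and 0.052% of all genes, with a median of -0.59. The median was -0.38 without WT replicate 1 and -0.74 without cKO replicate 2. Both cKO libraries lay below both WT libraries in 11 of the 22, against 21.9% of all genes. Ccl2, which attracts monocytes, was at 10.58 and 8.68 in WT and at 7.33 and 7.79 in cKO (-2.07, adjusted p = 0.204). Ccl6 was at 15.16 and 15.00 in WT and at 14.43 and 14.37 in cKO (-0.68, adjusted p = 0.235).

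Cytokine, Toll-like receptor and NF-kB genes had lower medians without calls in limma. Of 18 inflammatory cytokine genes 0 passed, 8 had an unadjusted p under 0.05 with a lower level, against 6.02% of all genes, and the median was -0.47, or -0.28 without WT replicate 1. Il1b, the gene of interleukin 1 beta, was at 10.21 and 9.37 in WT and at 8.57 and 8.55 in cKO (-1.23, adjusted p = 0.142). Tnf was at 9.58 and 9.21 in WT and at 8.75 and 8.50 in cKO (-0.77, adjusted p = 0.204). In both genes the higher library of WT was replicate 1 and the groups did not overlap. Among 21 Toll-like receptor sensing genes 0 passed and 8 had an unadjusted p under 0.05 with a lower level, again against 6.02%, with a median of -0.31. The smallest p in that list belonged to Tlr1, a receptor that pairs with TLR2, at 8.74 and 8.73 in WT and 7.42 and 7.94 in cKO (-1.05, adjusted p = 0.0825). Cd14, the LPS co-receptor gene, was at 14.87 and 14.11 in WT and at 13.54 and 13.44 in cKO (adjusted p = 0.235). For 19 NF-kB subunit and feedback genes the counts were 0 and 7, against the same 6.02%, with a median of -0.23, and Tnfaip3, the gene of the inhibitor A20, differed by -0.62 (adjusted p = 0.222). Ptgs2, the inducible cyclooxygenase gene, had the lowest difference of the tested genes whose groups did not overlap, clone-named genes left out. It was at 9.80 and 8.12 in WT and at 6.72 and 6.53 in cKO (-2.33, adjusted p = 0.102).

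**Figure D3:**
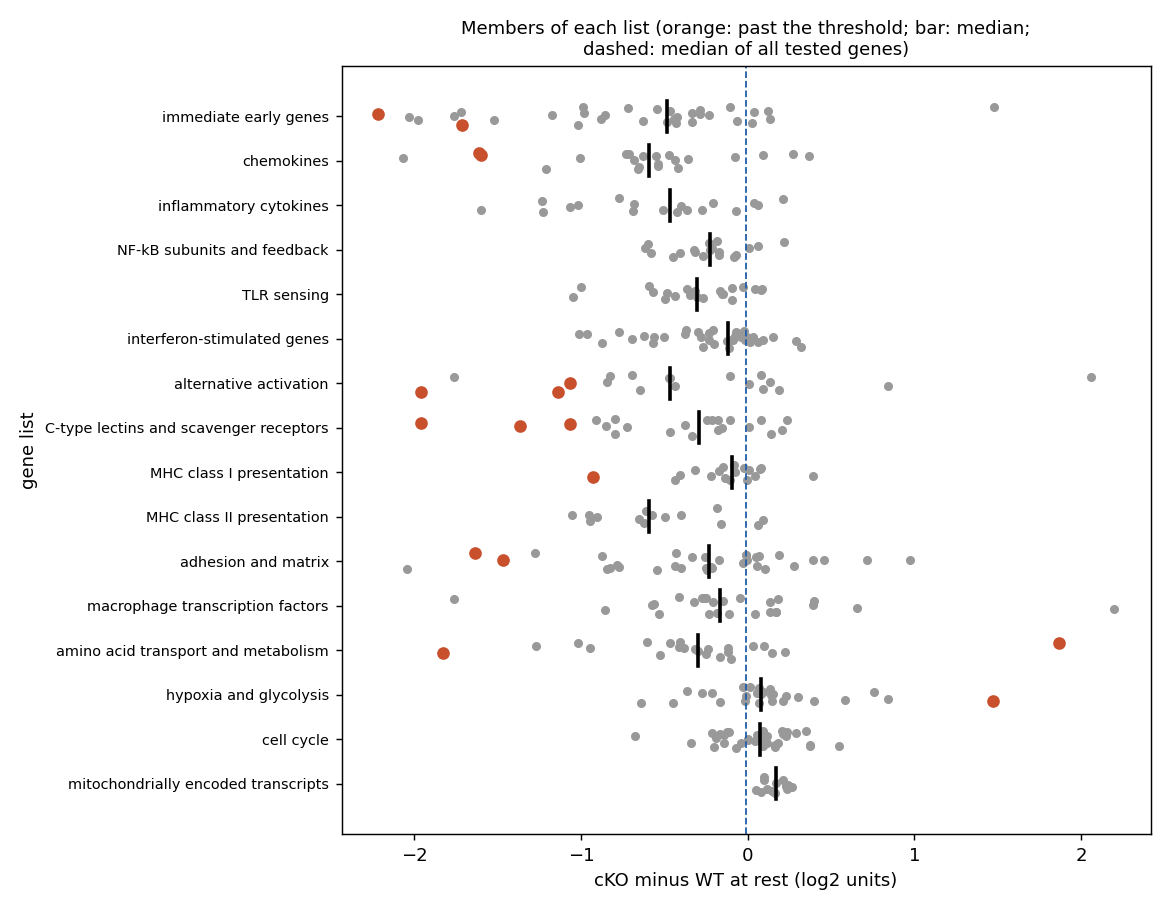
Each point is a tested member of a gene list, placed by its cKO minus WT difference at rest in log2 units, with orange for genes past the threshold, a black bar at the list's median and a dashed line at the median of all tested genes, -0.01. The medians of the 16 lists drawn run from -0.59 for chemokines and for MHC class II presentation to 0.17 for mitochondrially encoded transcripts.

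Genes of 3 surface lectins fell, as did Tgm2, another gene used as a marker of alternatively activated macrophages. Mgl2, which encodes a galactose-binding lectin, was at 5.52 and 5.48 in WT and at 3.42 and 3.66 in cKO, a difference of -1.96 (SE 0.24, adjusted p = 0.0284). Mrc1, the mannose receptor gene, was at 8.54 and 8.70 in WT and at 7.64 and 7.46 in cKO, a difference of -1.07 (SE 0.15, adjusted p = 0.0347). Clec4b1, a C-type lectin gene, was at 6.31 and 6.06 in WT and at 4.72 and 4.91 in cKO, a difference of -1.36 (SE 0.18, adjusted p = 0.0341). These were the 3 of 22 tested C-type lectin and scavenger receptor genes that passed, and 0 rose. The shares of all genes were 0.199% lower and 0.052% higher. The list's median was -0.29, and both cKO libraries lay below both WT libraries in 8 of 22, against 21.9% of all genes. Mgl2 and Clec4b1 have close paralogs, and how reads that match several genes were counted is not given in the sources used here, so their values are uncertain to that extent.

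Of 19 alternative activation genes 3 fell, Mgl2, Mrc1 and Tgm2, and 0 rose, against 0.199% and 0.052% of all genes. The list's median was -0.47. Tgm2, the gene of tissue transglutaminase, was at 10.20 and 10.31 in WT and at 9.12 and 9.10 in cKO, a difference of -1.14 (SE 0.13, adjusted p = 0.028). Klf4, a transcription factor gene on this list and on the immediate early list, was at 9.10 and 7.33 in WT and at 6.40 and 6.51 in cKO (-1.76, adjusted p = 0.235). Other markers on the list did not share this direction. Chil3, the gene of the chitinase-like protein Ym1, was at 10.34 and 12.06 in WT and at 13.00 and 13.52 in cKO (2.06, SE 0.49, adjusted p = 0.197) and was picked with its values in view. The WT libraries of Chil3 lay more than 1 unit apart.

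Rbp4, which carries retinol, was at 9.62 and 9.31 in WT and at 7.87 and 7.78 in cKO, a difference of -1.64 (SE 0.19, adjusted p = 0.028). It fell, as did Tgm2, among 17 PPAR, LXR and retinoid responsive genes with a median of -0.14, which was -0.28 without WT replicate 1 and -0.04 without cKO replicate 2. Fabp4, a fatty acid-binding protein gene, was at 8.73 and 8.99 in WT and at 8.46 and 7.90 in cKO (-0.68, adjusted p = 0.335). Rara, a retinoic acid receptor gene, was at 4.80 and 4.70 in WT and at 5.28 and 5.34 in cKO (0.56, adjusted p = 0.365). The list therefore held members on either side of no difference.

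Antigen presentation genes gave 1 call. H2-T23, which encodes the nonclassical class I molecule Qa-1, was at 10.49 and 10.50 in WT and at 9.49 and 9.64 in cKO, a difference of -0.93 (SE 0.13, adjusted p = 0.039). Class I genes resemble each other in sequence, which makes this value uncertain in the same way. It was the 1 of 18 MHC class I presentation genes that passed, and that list's median was -0.10, or -0.15 without cKO replicate 2. Of 14 MHC class II presentation genes 0 passed in limma, 7 had an unadjusted p under 0.05 with a lower level in cKO, against 6.02% of all genes, and the median was -0.59. H2-Ab1, a class II beta chain gene, was at 15.24 and 15.22 in WT and at 14.67 and 13.98 in cKO (-0.90, adjusted p = 0.301). Cd86, a costimulatory ligand gene, was at 8.82 and 8.17 in WT and at 7.17 and 7.71 in cKO (-1.05, adjusted p = 0.235). Without WT replicate 1 the class II median was -0.69, and without cKO replicate 2 it was -0.42.

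Gpx3 and Slc7a8 fell. Gpx3, a secreted glutathione peroxidase, was at 10.97 and 11.76 in WT and at 9.55 and 9.23 in cKO, a difference of -1.97 (SE 0.25, adjusted p = 0.0284). It was the 1 call among 22 antioxidant genes, whose median was 0.00, or -0.19 without WT replicate 1. Gsr, the glutathione reductase gene, was at 7.35 and 7.62 in WT and at 8.08 and 8.98 in cKO (1.04, adjusted p = 0.314). Slc7a8, an exchanger of neutral amino acids, was at 8.52 and 8.32 in WT and at 6.79 and 6.40 in cKO, a difference of -1.83 (SE 0.25, adjusted p = 0.0347). Of 23 amino acid transport and metabolism genes 1 fell, Slc7a8, and 1 rose, Glud1. Slc7a11, the cystine transporter gene, was at 10.86 and 10.91 in WT and at 9.89 and 9.85 in cKO (-1.02, adjusted p = 0.0548), just outside the threshold. Slc7a2, a cationic amino acid transporter gene, was at 9.15 and 9.23 in WT and at 8.43 and 7.41 in cKO (-1.27, adjusted p = 0.169).

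The next 3 genes that fell belong to none of the lists. Gdpd1, a glycerophosphodiester phosphodiesterase, was at 9.29 and 9.34 in WT and at 7.86 and 7.76 in cKO, a difference of -1.50 (SE 0.13, adjusted p = 0.00632). Hcar2, the receptor for niacin and beta-hydroxybutyrate, was at 8.97 and 8.83 in WT and at 7.64 and 7.80 in cKO, a difference of -1.18 (SE 0.15, adjusted p = 0.0284). Hilpda, a lipid droplet protein that inhibits adipose triglyceride lipase, was at 10.67 and 10.70 in WT and at 9.80 and 9.78 in cKO, a difference of -0.90 (SE 0.11, adjusted p = 0.0284). In Gdpd1 and Hilpda the libraries of a genotype differed by at most 0.10.

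Pmp22 and Sdc1, of the adhesion and matrix list, fell. Pmp22, a tetraspan membrane protein best known from myelin, was at 9.94 and 10.00 in WT and at 8.45 and 8.21 in cKO, a difference of -1.64 (SE 0.14, adjusted p = 0.00632). Sdc1, the heparan sulphate proteoglycan syndecan 1, was at 12.35 and 12.76 in WT and at 11.33 and 10.85 in cKO, a difference of -1.47 (SE 0.20, adjusted p = 0.0341). They were the 2 of 34 adhesion and matrix genes that fell, and 0 rose, against 0.199% and 0.052% of all genes. The median of the list was -0.23. Thbs1, the matricellular glycoprotein thrombospondin 1, was at 9.92 and 8.61 in WT and at 7.21 and 7.24 in cKO (-2.04, adjusted p = 0.0978). Itgam, the integrin alpha M gene, was at 10.09 and 9.97 in WT and at 9.18 and 9.30 in cKO (-0.78, adjusted p = 0.157).

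The remaining genes that fell are on none of the lists. Adam33, a membrane metalloprotease, was at 7.35 and 7.67 in WT and at 6.31 and 6.02 in cKO (-1.35, adjusted p = 0.0333). Cgnl1, a junctional scaffold protein, was at 6.38 and 6.44 in WT and at 5.01 and 4.78 in cKO (-1.52, adjusted p = 0.028). Mgat4a, a Golgi enzyme that branches N-glycans, was at 9.15 and 9.02 in WT and at 8.23 and 8.19 in cKO (-0.88, adjusted p = 0.0284). All 3 fell, with groups that did not overlap. Lrrc8c, a subunit of volume-regulated anion channels, had the difference nearest 0 among the falls and was at 8.39 and 8.34 in WT and at 7.56 and 7.54 in cKO (-0.81, adjusted p = 0.039). It was the 1 of the 23 lower genes that the authors' deposited table does not call at rest (adjusted p = 0.06).

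Lyz1 rose by more than any other gene that passed. It encodes a lysozyme, an enzyme that cuts bacterial peptidoglycan, and is classically the form of intestinal Paneth cells. Its level was 6.65 and 6.98 in WT and 9.68 and 10.21 in cKO, a difference of 3.13 (SE 0.22, adjusted p = 0.00392). Lyz2, the lysozyme of macrophages, was at 19.00 and 19.12 in WT and at 18.13 and 18.46 in cKO, a difference of -0.76 that did not pass (SE 0.31, adjusted p = 0.433). The authors' deposited table calls both genes, with log2 fold changes of 3.54 for Lyz1 and -0.81 for Lyz2 (adjusted p = 0.0231). The genes are neighbours on the minus strand of chromosome 10, Lyz2 at 117277331 to 117282321 and Lyz1 at 117287797 to 117292868 (GRCm38), with 5475 bases between them. They are near-identical in parts, so the division of reads between them is uncertain. After LPS the genotype differences were 2.91 for Lyz1 and -1.07 for Lyz2 (adjusted p = 0.0899).

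Elavl1, which encodes HuR, a protein that binds AU-rich messenger RNAs, was at 6.68 and 6.44 in WT and at 8.43 and 8.76 in cKO, a difference of 2.04 (SE 0.19, adjusted p = 0.00686). It was the 1 call among 22 RNA-binding regulators of AU-rich messages, whose median was 0.04, or -0.02 without cKO replicate 2. Celf1, another such protein, was at 6.63 and 6.84 in WT and at 7.26 and 7.50 in cKO (0.65, adjusted p = 0.222). Glud1, the mitochondrial glutamate dehydrogenase, was at 7.67 and 7.78 in WT and at 9.17 and 10.02 in cKO, a difference of 1.87 (SE 0.24, adjusted p = 0.0284). Its cKO libraries differed by 0.85, the widest gap within cKO among the 29 genes, and both lay above WT by more than that gap.

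Dgkg, a diacylglycerol kinase, was at 2.47 and 2.85 in WT and at 4.27 and 4.21 in cKO, a difference of 1.58 (SE 0.23, adjusted p = 0.039). Its low level places it where the transformation shrinks differences most. Of 16 genes of diacylglycerol kinases and phospholipid signalling it was the 1 call, and the median was -0.05, or -0.11 without WT replicate 1. Ankrd37, a target of hypoxia-inducible factor, was at 4.97 and 5.49 in WT and at 6.80 and 6.61 in cKO, a difference of 1.47 (SE 0.21, adjusted p = 0.039). It was the 1 call among 28 hypoxia and glycolysis genes. The median of that list was 0.08, or 0.20 without cKO replicate 2, and in 10 of the 28 both cKO libraries lay above both WT libraries, against 19.3% of all genes. In 3 of the 28 both cKO libraries lay below both WT libraries, against 21.9% of all genes. Bnip3, a mitophagy receptor gene also on it, was at 8.25 and 8.34 in WT and at 8.97 and 9.14 in cKO (0.76, adjusted p = 0.24). Klra3, a Ly49 family lectin-like receptor, was at 6.28 and 6.46 in WT and at 7.66 and 7.75 in cKO, a difference of 1.34 (SE 0.19, adjusted p = 0.0349). Klra17, of the same family, was at 5.54 and 5.43 in WT and at 6.50 and 6.09 in cKO (0.81, adjusted p = 0.231). Klra2 went the other way, at 7.27 and 6.48 in WT and at 6.28 and 6.94 in cKO (-0.27, adjusted p = 0.854). Klra3 was the 1 call among 5 tested Ly49 and NKG2 family genes, whose median was 0.70, or 0.47 without WT replicate 1. Ly49 genes are similar in sequence, which leaves the source of these reads uncertain. The summed level of natural killer cell markers was higher in cKO, 3.83 to 3.93 against 3.41 to 3.48. That sum rests mainly on Klrb1c, at 2.59 and 2.71 in WT and at 3.26 and 3.44 in cKO. The other markers of that list lay lower and did not share the rise, such as Nkg7 at 0.66 and 0.62 in WT and at 0.65 and 0.47 in cKO. The part of the shift in that sum in the Klra3 difference was not tested.

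Other lists gave 1 call or none. Of 11 tested genes of PTIP and its partners Paxip1 was the 1 call, and the 10 others lay between -0.21 in Rbbp5 and 0.67 in Ash2l. Among 26 macrophage transcription factor genes 0 passed and 7 had an unadjusted p under 0.05, 2 higher, against 4.86% of all genes, and 5 lower, against 6.02%. Spi1, the gene of PU.1, was at 8.17 and 8.55 in WT and at 9.17 and 11.94 in cKO (2.20, adjusted p = 0.382), so its difference rests on cKO replicate 2. Interferon-stimulated genes gave 0 calls in 38 with 3 lower at an unadjusted p under 0.05, against 6.02% of all genes, and their median of -0.12 moved to -0.55 without cKO replicate 2. Cell cycle genes gave 0 calls in 34 and 1, lower in cKO, at an unadjusted p under 0.05. For this count and those of the lists that follow, the shares of all genes were 4.86% higher and 6.02% lower. The cell cycle median was 0.08, or -0.02 without cKO replicate 2. DNA damage response genes gave 0 calls in 23 and 0 at an unadjusted p under 0.05, with a median of -0.03, or 0.04 without WT replicate 1. For 24 cholesterol synthesis genes the counts were 0 and 1 with a median of -0.07, or -0.28 without WT replicate 1. The 15 mitochondrially encoded transcripts gave 0 at either threshold and a median of 0.17, which was -0.16 without WT replicate 1.

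The libraries taken 6 h after LPS had no part in the group means at rest, although both contrasts share the estimate of spread, and whether same-numbered libraries came from 1 culture is not stated. Gaps between replicates recurred across the times. Of the 220 genes with cKO replicate 2 higher at rest, 194 had it higher after LPS by any margin, against 5657 of all 11543 tested genes. Of the 117 with WT replicate 1 higher, 92 did, against 6059 of the 11543. In the 6 h libraries all 29 genes differed between cKO and WT in the direction seen at rest, against 64.7% of all tested genes. In all 29 the groups did not overlap there, against 23.3% of all genes above WT and 29.7% below it. The 6 h contrast called 4 of the 6 higher genes, against 1.51% of all genes, and 19 of the 23 lower genes, against 2.46%. The exceptions were Dgkg (0.85, adjusted p = 0.0759), Ankrd37 (0.75, adjusted p = 0.0858), Jun (-1.26, adjusted p = 0.064), Cxcl1 (-0.82, adjusted p = 0.066), Clec4b1 (-0.64, adjusted p = 0.0868) and Tgm2 (-0.32, adjusted p = 0.209). The 23 genes called at both times became 0 in limma when either cKO library at 6 h was left out, with 28 of the 29 at an unadjusted p under 0.05, and 7 without WT replicate 1 at 6 h.

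The size of the difference varied by gene. Cxcl2 was at 12.91 and 13.16 in WT after LPS and at 12.33 and 12.45 in cKO, a difference of -0.65 beside -1.60 at rest. Tgm2 stood at 11.79 and 11.49 in WT after LPS and at 11.37 and 11.27 in cKO. Both genes were thus higher in every LPS library than in any resting library, and the genotypes lay closer together there. Mgat4a was at 11.66 and 11.65 in WT after LPS and at 9.93 and 9.95 in cKO, a difference of -1.71 beside -0.88 at rest. Adam33 differed by -1.94 after LPS and by -1.35 at rest. Gpx3 was at 11.23 and 11.59 in WT after LPS and at 9.33 and 9.30 in cKO, levels close to those at rest. The difference was nearer 0 after LPS in 4 of the 6 higher and 15 of the 23 lower genes. The genes were chosen for their differences at rest, which by itself favours smaller ones in other libraries. This count was not taken over all genes. In the test of the change in difference between the times, in which the libraries that chose the genes take part, 0 of 11543 genes passed and 751 had an unadjusted p under 0.05 (6.51%). Among the 29 genes 9 had an unadjusted p under 0.05, and the smallest adjusted p was 0.643.

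**Figure D4:**
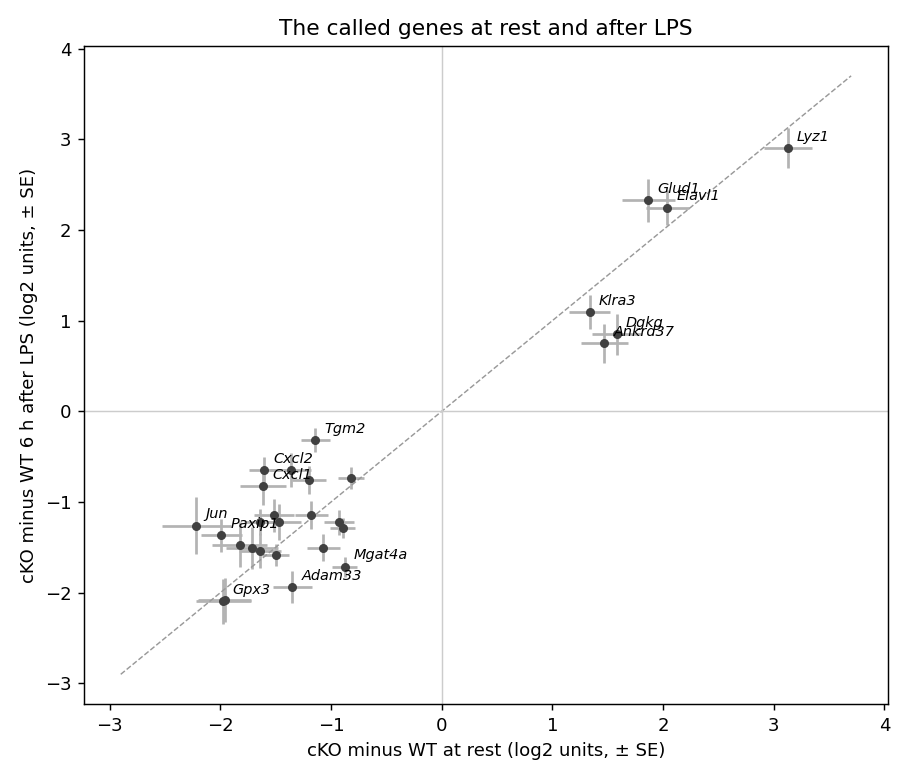
Each point is a gene that passed at rest, with its cKO minus WT difference at rest on the horizontal axis and 6 h after LPS on the vertical axis, both in log2 units with standard errors as bars. The dashed line marks equal differences. All 29 genes lie in the quadrants of the same sign, with Tgm2, Cxcl1 and Cxcl2 nearer to 0 after LPS and Mgat4a and Adam33 farther from 0.

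Large differences that did not pass came with wide gaps between the libraries of a genotype. Lsm4, an RNA-binding core protein of small nuclear and decay complexes, was at 4.72 and 5.13 in WT and at 6.17 and 9.05 in cKO (2.68, adjusted p = 0.284). Camk1, a calcium and calmodulin-dependent kinase, was at 7.36 and 8.15 in WT and at 9.06 and 11.71 in cKO (2.63, adjusted p = 0.261). C1qc, a chain of complement C1q, was at 8.41 and 8.07 in WT and at 8.78 and 12.12 in cKO (2.21, adjusted p = 0.427). In these genes both cKO libraries lay above WT, and cKO replicate 2 was far above cKO replicate 1. The other C1q chains did not share that pattern. C1qa was at 11.39 and 10.70 in WT and at 9.73 and 9.75 in cKO, and C1qb was at 14.33 and 13.58 in WT and at 12.87 and 12.79 in cKO. Timm29, Scand1 and Tysnd1 had differences of 2.45, 2.34 and 2.23 with the same gap between the cKO libraries. Tysnd1, a peroxisomal protease gene, was at 7.68 and 8.12 in cKO after LPS against 4.51 and 4.38 in WT, and passed there (3.46, adjusted p = 0.0156). Among the falls, Hspa1a, an inducible HSP70 gene with a near-identical neighbour, was at 7.76 and 5.28 in WT and at 4.66 and 4.01 in cKO (-2.18, adjusted p = 0.352).

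In the authors' deposited table, 72 of the tested genes are higher in cKO at rest (0.624%) and 104 are lower (0.901%) at an adjusted p under 0.05. Limma called 6 of those 72 and 22 of those 104. Clone-named genes were left out of the rankings that follow. In the authors' deposited table the other rises that limma did not call are led by Scand1 with a log2 fold change of 4.28 and Bloc1s4 with 3.45. Next are Tysnd1 with 3.17, Gpatch3 with 3.14, Ctnnbip1 with 2.88 and Thap11 with 2.79. Of those 72 genes, 42 (58.3%) had cKO replicate 2 above cKO replicate 1 by more than 1 log2 unit at rest, against 1.91% of all tested genes, with a median gap of 1.20. Of the 104 lower genes 1 (0.962%) had that cKO gap. WT replicate 1 lay above WT replicate 2 by more than 1 in 9 of them (8.65%), against 1.01% of all tested genes. With clone-named genes left out, the falls in the authors' deposited table that limma did not call are led by Ptgs2, Fosb, Thbs1, Fos, Tspan7 and Trem1. Fos was at 12.86 and 11.93 in WT and at 10.96 and 10.39 in cKO (-1.72, adjusted p = 0.222), beside a log2 fold change of -1.92 in the authors' deposited table. Trem1, an activating receptor gene of myeloid cells, was at 8.58 and 7.55 in WT and at 6.48 and 6.66 in cKO (-1.49, adjusted p = 0.235), beside -1.83 in the authors' deposited table.

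**Figure D5:**
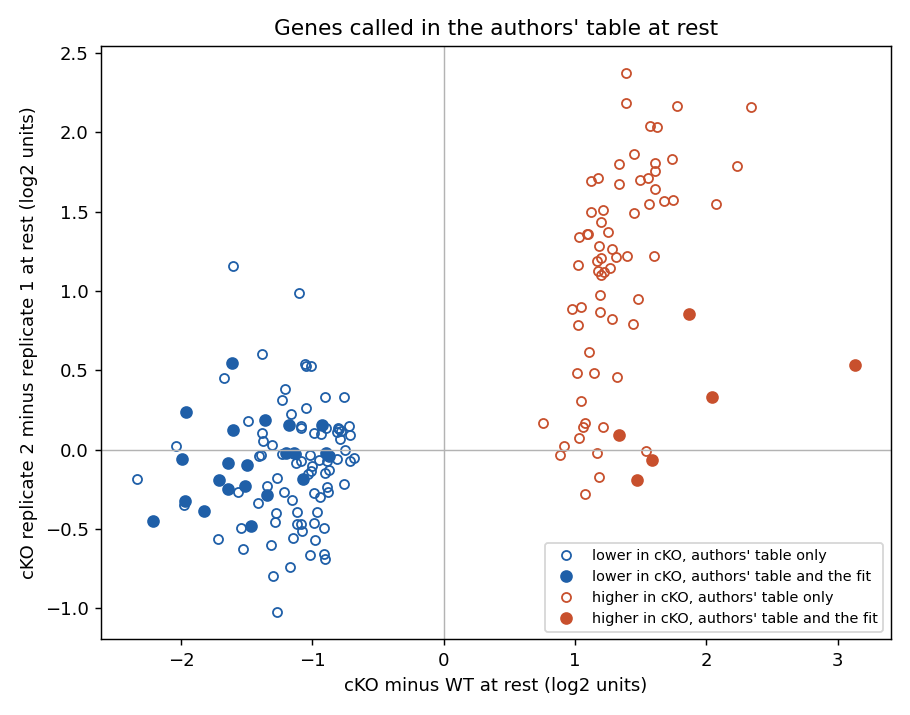
Each point is a gene that the authors' deposited table calls at rest, with the cKO minus WT difference on the horizontal axis and the gap between the cKO libraries, replicate 2 minus replicate 1, on the vertical axis, both in log2 units. Filled points also passed in limma. The rises (orange) spread upward with a median gap of 1.20, the falls (blue) centre on -0.07, and the filled rises lie at gaps of 0.85 or less.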

How the data were processed

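Poly(A) RNA libraries of 8 samples were prepared with random primers and 15 PCR cycles, per the labels' protocols. Per the submitters' processing notes, GRCm38 was used with HISAT2 2.1.0, featureCounts, CASAVA and DESeq2, whose roles are not stated. Annotation and use of strand: not given in the sources used here. The authors deposited log2-scale rlog values and, per the file headers, their own log2 fold changes with p-values, which were copied unchanged.

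Genes averaging 3 or more entered limma 3.58.1 (R 4.3.3; lmFit, contrasts.fit, eBayes with trend) with 4 group means over 8 samples, 4 residual degrees of freedom and 4.4 prior ones. The code was tested on simulated data. The lists and genes were chosen with earlier results of these data known. Named genes were Paxip1 and its partners, all genes past the threshold, up to 4 members of each list, the 8 largest differences in each direction without overlap, and the 6 largest in each direction called in the authors' deposited table alone. Clone-named genes were counted but left unnamed and out of these rankings. GENCODE M21 gave positions, transcript length and GC content for 11440 tested genes.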

Additional observations from a re-analysis of the deposited data

How the results depend on the processing

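Main counts at rest were 6 higher and 23 lower. They were 2 and 7 without a variance trend, and 46 and 68 with no filter on low values, where 2 and 13 of the main calls remained. With the 4 samples at 0 h alone they were 0 and 0 in limma, with 1117 genes at an unadjusted p under 0.05. Leaving out 1 replicate gave 1 to 99 higher and 1 to 29 lower, the lone sample being assumed to vary like the other groups. Left out together, as chosen after seeing the data, both cKO number 2 libraries or both WT number 1 libraries gave 0 and 0 in limma, with 629 and 943 genes at an unadjusted p under 0.05. Of the 29 genes, the 23 called after LPS became 2 and 9 in those settings and 0 to 23 with 1 replicate left out. Without cKO replicate 1 at rest 77.3% of calls were higher.

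The replicate block gave 21 and 51 calls, 29.2% of them higher against 6 of 29 without the block, and all 29 were among them. With a GC and length correction added, also chosen after seeing the data, the replicate block gave 29 and 61. Deviations of same-numbered samples correlated at -0.04 between WT and cKO at rest, at 0.31 between the times in cKO and at 0.22 in WT. The numbers were not taken to pair WT with cKO.

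Paxip1 missed the threshold with the 0 h samples alone (-1.99, adjusted p = 0.0544), without both cKO number 2 libraries (-1.96, adjusted p = 0.228) and without both WT number 1 libraries (-1.99, adjusted p = 0.092). With 1 replicate left out it lay between -2.02 and -1.96, and its adjusted p was 0.0625 without cKO replicate 2 and 0.0732 without WT replicate 1 at rest. Lyz1 passed in 17 of 20 settings, Cxcl2, Gdpd1 and Pmp22 in 16, and Dgkg in 5 of 19. A robust prior, centring, quantile normalization, a minimum mean of 5 and the GC correction alone kept the counts at rest within 1.5 times. The cause of these changes was not tested. Depth limits are unknown without read counts.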
